A study of Mus musculus with 272 samples.

Results

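H3K27ac, histone H3 acetylated at lysine 27, was profiled by ChIP-seq in mouse muscle stem cells (MuSCs) in 2 libraries, the 2 of the 272 samples of the series that carry this mark in their labels. Each library was deposited as a list of peaks, the stretches of the genome where its reads exceeded the background. The lists were read gene by gene over the 21938 protein-coding genes of the GENCODE M21 annotation and, for gene types, over all 55413 genes described. The series as a whole concerns the repair products left by CRISPR-Cas9 in MuSCs of living mice, and H3K27ac is one of the chromatin features recorded for the same cell type, next to H3K4me3, H3K27me3 and ATAC-seq with 2 libraries each. The cells came from Pax7Cas9 mice, a cross of Pax7Cre with Cre-dependent Rosa26Cas9-EGFP knockin animals, so that all of them carry Cas9 and GFP once Pax7-driven Cre has acted. They were sorted from digested hindlimb muscle as GFP+ mononuclear cells, a gate that takes every cell that expressed Pax7 or descends from one that did. The antibody for H3K27ac was Cell Signaling Technology #8173. The labels give skeletal muscle as the tissue but no age, sex, strain or number of pooled animals for these libraries, and nothing in them says that replicates 1 and 2 came from separate animals, so the spread between them may be technical.

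H3K27ac is laid down by the acetyltransferases p300 and CBP and lies on nucleosomes beside active promoters and active enhancers, whereas H3K4me3 is mostly restricted to promoters and H3K27me3 is the mark of Polycomb repression on the same lysine. Genes that define a cell's identity often carry broad runs of H3K27ac over the promoter, the introns and the flanks. MuSCs are defined by Pax7, a paired-box transcription factor on which their maintenance depends.

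For each gene, the load was the number of bases covered by peaks in a window of the gene and 50 kb on either side. Promoter bases were those within 3 kb of a start site of the gene, the distance used for promoters in the study's methods. Distal bases were those more than 3 kb from every annotated start site of any gene, and the remainder of a load lies at promoters of other genes in the window. Windows overlap, so neighbouring genes share bases, and a long gene has a longer window. Loads are given in bases, and per kb of window for the leading genes, and an order by bases is not an order per kb.

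The regions that the results turn on are open sites inside H3K27ac peaks. The sequences below are the plus strand of GRCm38.p6 (mm10), the summit and 100 bases on either side of it for an ATAC-seq peak that lies inside H3K27ac of both replicates, more than 3 kb from every start site and outside exons, and for each gene the most enriched such summit in its window was taken, or the 3 most enriched for Pax7. They are shown because they are the most open distal positions in the H3K27ac of genes described here, and they were chosen after the values were seen. Summits and their enrichment come from ATAC-seq replicate 1 alone, at peaks that overlap a peak of replicate 2. Capitals mark matches, on either strand, to AP-1 (TGANTCA, bound by FOS and JUN proteins), the E-box CAGCTG (bound by MYOD1 and MYF5), RUNX (TGTGGT), TEAD (CATTCC), the cAMP response element CRE (TGACGTCA) or MEF2. A match is a run of letters and not evidence of binding. Sites 1 to 3 of Pax7 lie at chr4:139771348-139771548 in an intron 62.1 kb after the first start site, at chr4:139821578-139821778 in an intron 11.9 kb after it, and at chr4:139689777-139689977 beyond the 3' end of the gene, 144 kb from the start.
Pax7 site 1: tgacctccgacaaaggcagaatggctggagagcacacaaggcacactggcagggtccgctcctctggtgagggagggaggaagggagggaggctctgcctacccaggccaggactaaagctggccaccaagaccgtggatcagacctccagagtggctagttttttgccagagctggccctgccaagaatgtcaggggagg
Pax7 site 2: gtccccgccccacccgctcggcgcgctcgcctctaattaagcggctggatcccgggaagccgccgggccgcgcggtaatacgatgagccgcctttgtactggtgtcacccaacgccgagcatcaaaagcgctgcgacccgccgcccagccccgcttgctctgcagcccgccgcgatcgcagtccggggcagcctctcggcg
Pax7 site 3: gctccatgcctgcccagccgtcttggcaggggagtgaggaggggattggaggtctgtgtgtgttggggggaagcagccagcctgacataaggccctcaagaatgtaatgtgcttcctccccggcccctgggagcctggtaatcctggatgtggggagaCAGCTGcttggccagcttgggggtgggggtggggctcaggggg
The next sites come from an intron of Zbtb20 (chr16:43592185-43592385), an intron of Nfia (chr4:97868931-97869131), an intron of Sept9 (chr11:117269983-117270183), an intron of Lamc1 (chr1:153265733-153265933) and the region 13.8 kb upstream of Myf5 (chr10:107499792-107499992).
Zbtb20: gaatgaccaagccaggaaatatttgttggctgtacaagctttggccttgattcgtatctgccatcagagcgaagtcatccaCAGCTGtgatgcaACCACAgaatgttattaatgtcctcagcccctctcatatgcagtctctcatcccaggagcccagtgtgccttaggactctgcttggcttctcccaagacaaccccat
Nfia: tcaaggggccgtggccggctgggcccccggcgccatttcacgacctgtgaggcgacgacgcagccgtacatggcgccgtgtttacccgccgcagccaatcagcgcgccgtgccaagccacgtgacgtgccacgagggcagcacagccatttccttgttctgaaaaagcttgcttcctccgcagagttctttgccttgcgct
Sept9: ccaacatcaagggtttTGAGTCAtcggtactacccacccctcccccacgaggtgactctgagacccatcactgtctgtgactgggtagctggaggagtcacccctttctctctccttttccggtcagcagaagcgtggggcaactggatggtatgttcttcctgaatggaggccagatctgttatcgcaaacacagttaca
Lamc1: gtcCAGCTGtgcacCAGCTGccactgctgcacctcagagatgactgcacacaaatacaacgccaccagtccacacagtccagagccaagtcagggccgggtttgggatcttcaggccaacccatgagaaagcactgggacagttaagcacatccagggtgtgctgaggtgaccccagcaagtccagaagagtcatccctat
Myf5: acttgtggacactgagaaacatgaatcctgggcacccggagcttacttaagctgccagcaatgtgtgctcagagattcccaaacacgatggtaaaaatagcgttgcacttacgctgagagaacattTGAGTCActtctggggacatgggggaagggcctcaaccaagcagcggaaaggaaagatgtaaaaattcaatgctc
The sites differ in what they hold. Sites 1 and 2 of Pax7 and the Nfia site contain none of the 6 motifs. Site 3 of Pax7 holds 1 E-box, Lamc1 holds 2 E-boxes, Zbtb20 holds 1 E-box and 1 RUNX match, and Sept9 and Myf5 hold 1 AP-1 match each. In H3K27ac, site 1 of Pax7 sits in a peak of 2390 bp with an 8.92-fold enrichment in replicate 1 and of 2175 bp with 7.41-fold in replicate 2. The Nfia site sits in peaks of 18.4-fold over 2068 bp and of 12.1-fold over 1870 bp.

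The lists held 24217 peaks covering 20.3 Mb in replicate 1 and 18589 peaks covering 14.7 Mb in replicate 2. Read numbers are not in the lists, so the depth behind a peak is unknown, and an absent peak says only that none was called. The cells of a library are pooled, and in such data fewer cells of a type and less of the mark per cell cannot be told apart. Loads were lower in replicate 2 for 90.2% of the 15042 genes with a load in both, with a median ratio of replicate 2 to replicate 1 of 0.783. The order of genes was close in the replicates, with Spearman's rho of 0.956 for window loads, 0.899 for promoter loads over 10231 genes and 0.814 for distal loads over 4383 genes. These are correlations across genes, which share bases with their neighbours and are not independent, and each pair of values comes from the same 2 libraries. Distal bases were the part that varied most. Of the genes with a load in replicate 1, replicate 2 kept 95.6% for the window and 93.0% for the promoter but 67.8% for distal bases, and the median ratio of distal loads was 0.612.

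The label of the cells was set against marker lists. These lists were chosen with earlier results of these data known, so the comparison is no independent check of the label. Of 13 markers of MuSCs, 12 had an H3K27ac promoter peak in both replicates, where 46.6% of all protein-coding genes did. Among markers of the other cell types that a digest of muscle can hold, promoter peaks in both replicates were found at 3 of 10 for fibro-adipogenic cells, 1 of 10 for endothelium, 1 of 9 for blood, 3 of 10 for myofibres and 1 of 10 for neurons. The receptor gene Pdgfra, the proteoglycan genes Dcn and Lum and Dpp4, all defining genes of fibro-adipogenic cells, had no H3K27ac base in the window in either replicate. The same was true of the endothelial genes Cdh5, Kdr, Emcn and Robo4. Summed window loads of the marker lists were 133349 and 91495 bases for MuSCs in replicates 1 and 2, 24649 and 15061 for fibro-adipogenic cells, 27680 and 19872 for endothelium, 23257 and 16690 for blood, 41177 and 30006 for myofibres and 12759 and 10384 for neurons. Pax7 alone gave 45102 and 33523 of the MuSC sums, and the other 12 markers 88247 and 57972. The lists differ in gene number and window length, and window loads take in promoters of neighbours. At Cd68 of the blood list, such promoters held 9490 of 10761 bases in replicate 1 and 7306 of 8308 in replicate 2. The 9 exceptions in the other lists were Tek, an endothelial receptor (promoter bases 1433 and 1176), Cd68 of macrophages (1271 and 1002), the fibro-adipogenic genes Col15a1 (4076 and 2285), Dpt (2846 and 2100) and Cd55 (281 and 296), the myofibre genes Mylpf, a myosin light chain gene (2883 and 1237), Myh1, a fast myosin heavy chain gene (1821 and 1677), and Actn3 (1754 and 781), and the neuron gene Camk2a (877 and 336). Whether other cells in the sort contribute to these was not tested.

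Over protein-coding genes H3K27ac lay mostly at promoters. A promoter peak was present at 50.1% of the genes in replicate 1 and 47.02% in replicate 2 (48.6% ± 2.19, SD, n = 2), and at 10231 genes in both. Any base of the window was covered at 71.7% and 68.8% of genes. Distal bases fell in the windows of 29.5% and 21.2% of genes, with 4383 genes (20%) in both, and inside the gene itself at 9.87% and 6.68%. At the other end, 6151 genes (28%) had no H3K27ac in the window in either replicate. The median load was 1766 bases in replicate 1 and 1316 in replicate 2, the 75th percentile 4012 and 3069, and the 99th percentile 14605 and 10758. A gene with a promoter peak had a median of 1298 and 1128 promoter bases, and a gene with distal bases a median of 870 and 684 of them.

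Of all bases summed over windows, promoters of other genes made up 56.4% and 59.1%. Such a sum counts a base once for each window that holds it, so dense loci weigh more, and it is not the share of a typical gene. The gene's own promoters gave 27.4% and 29.3%, distal bases inside the gene 5.47% and 3.72%, and distal bases in the flanks 10.7% and 7.85%. The share of a gene's load that was distal had a median of 0 in both replicates, because 58.9% and 69.3% of genes with a load had no distal base. Its mean was 13.7% and 9.85%, and it passed 50% at 8.65% and 5.85% of genes with a load. In position, the mark was centred just downstream of the start. The share of protein-coding genes covered reached 41.2% and 38.2% at 200 bp after the first start site. It was 14.4% and 11.3% at 1 kb after the start against 5.19% and 3.82% at 1 kb before it, and 1.48% and 0.985% at 5 kb after it.

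**Figure D1:**
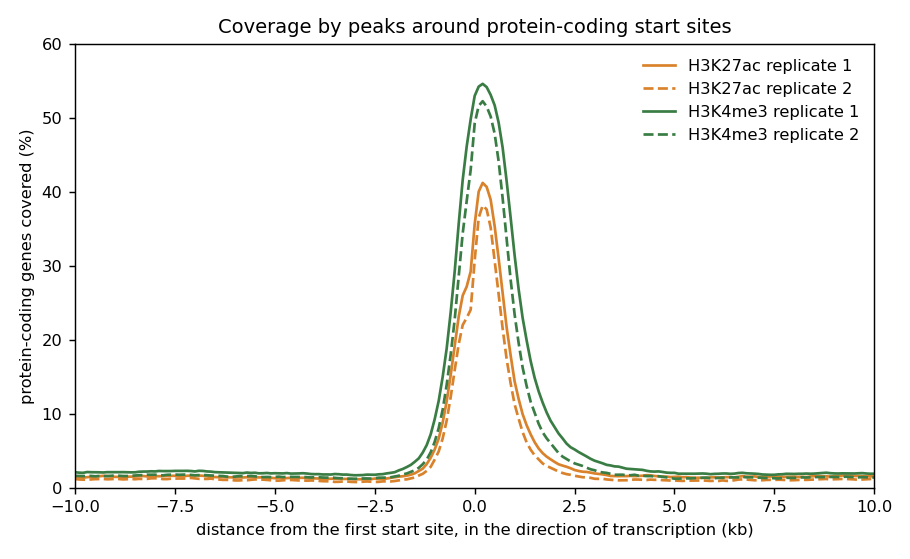
Share of protein-coding genes covered by a peak (y axis, percent) at each distance from the first start site in the direction of transcription (x axis, kb), for H3K27ac and H3K4me3, 1 line a replicate. H3K27ac peaked at 41.2% and 38.2% and H3K4me3 at 54.6% and 52.3%, all at 200 bp after the start. On every line the share at 1 kb before the start was below that at 1 kb after it.

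How far this distribution differs from a mark of promoters and from open chromatin was asked by comparing H3K27ac with H3K4me3 and ATAC-seq. The mean distal share was 11.7% ± 2.69 for H3K27ac (SD, n = 2) and 6.13% ± 1.65 for H3K4me3 (SD, n = 2; 7.30% and 4.96%), a difference of 5.62 percentage points with the replicates of the marks not overlapping. ATAC-seq had 33.9% ± 3.32 (SD, n = 2; 36.3% and 31.6%), and H3K27ac minus ATAC-seq was -22.2 points. An exact permutation test over the libraries (two-sided) gave p = 0.333 for each comparison, which is the smallest p that 2 against 2 libraries allow, so the design cannot pass the usual threshold. By the median of the shares, the difference from H3K4me3 was 0 points (exact p = 1), and H3K27ac minus ATAC-seq was -29.1 points (exact p = 0.333). The means were chosen after seeing the data, since the medians were 0. With promoters narrowed to 1 kb, the difference of medians from H3K4me3 was -2.09 points (exact p = 0.667).

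The size of the promoter load went with other marks. Genes with a promoter peak in both replicates were put in 4 equal groups by their lower promoter load. H3K4me3 in both of its replicates was present at 97.3% of the group with the fewest bases (12 to 682) and at 99.6% of the group with the most (1617 to 14734), and at 22.8% of the 10857 genes with no H3K27ac promoter peak. H3K27me3 was at 3.01% and 1.25% of those groups and at 7.74% of genes without the peak. The H3K27me3 lists reach down to a −log10 q of 0 and 0.0295, against 1.32 in both H3K27ac lists, so they hold peaks with less support. Distal H3K27ac in both replicates was at 22.01%, 24.9%, 28.5% and 45.2% of genes from the lowest group to the highest. The median gene lengths of the groups were 21.5, 24.3, 24.5 and 28.5 kb, and the part of length in these shares was not tested.

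The 25 genes with the most covered bases, ranked by the lower replicate, fell into 17 separate loci. The genes are a description of the load that chose them. Gm20388 was highest with 112233 bases in replicate 1 and 73074 in replicate 2, but it is a read-through model whose window spans 4535 kb and many other genes, and its load per kb of window was 24.7 and 16.1 bases. Fgfr2, the fibroblast growth factor receptor 2 gene, is likewise annotated over a very long model here (window 3061 kb), and its 54211 and 35281 bases came to 17.7 and 11.5 per kb. The other leading genes included transcription factors, signalling enzymes and the clock. Zbtb20, a zinc finger repressor, had 56531 and 43093 bases, of which 33653 and 26989 were distal, in a window of 867 kb (65.2 and 49.7 per kb). Pax7 had 45102 and 33523 bases and the highest load per kb of window in replicate 1, 230 bases, and the second highest in replicate 2, 171 bases. Nfia, a nuclear factor I transcription factor gene, had 36738 and 21398 bases, with 27238 and 14261 of them distal (82.3 and 47.96 per kb).

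Pde4b and Pde4d, which encode phosphodiesterases that degrade cAMP, had 32227 and 22129 bases and 25614 and 19088 bases. Both are long genes. Per kb of window Pde4b had 52.0 and 35.7 bases and Pde4d, with a window of 1604 kb, 15.97 and 11.9, which is below Gm20388 in both replicates and near Fgfr2. Neither window held promoter bases of another gene. Nr1d1, the clock repressor REV-ERB alpha, and its overlapping neighbour Thra, the thyroid hormone receptor alpha gene, shared a locus with 25749 and 17809 bases, and Nr1d1 ranked 2 and 3 per kb in replicates 1 and 2 (227 and 162). Nfix, another nuclear factor I gene, had 28226 and 17095 bases (141 and 85.3 per kb). Sept9, which encodes a septin of the cytoskeleton, had 22019 and 16254 bases, of which 77.0% and 80.9% were distal (83.8 and 61.9 per kb). Other loci led through neighbours. Frmd8 had 28555 and 25962 bases, of which 1651 and 1654 were at its own promoter, and its window takes in the non-coding genes Neat1 and Malat1. Aurkb, which encodes the mitotic kinase Aurora B, had 16963 and 16020 bases but only 618 and 490 at its own promoter, with 14359 and 13534 at promoters of other genes. Prpf8 of the spliceosome had 18956 and 16415 bases, 17129 and 14730 of them at promoters of other genes.

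**Figure D2:**
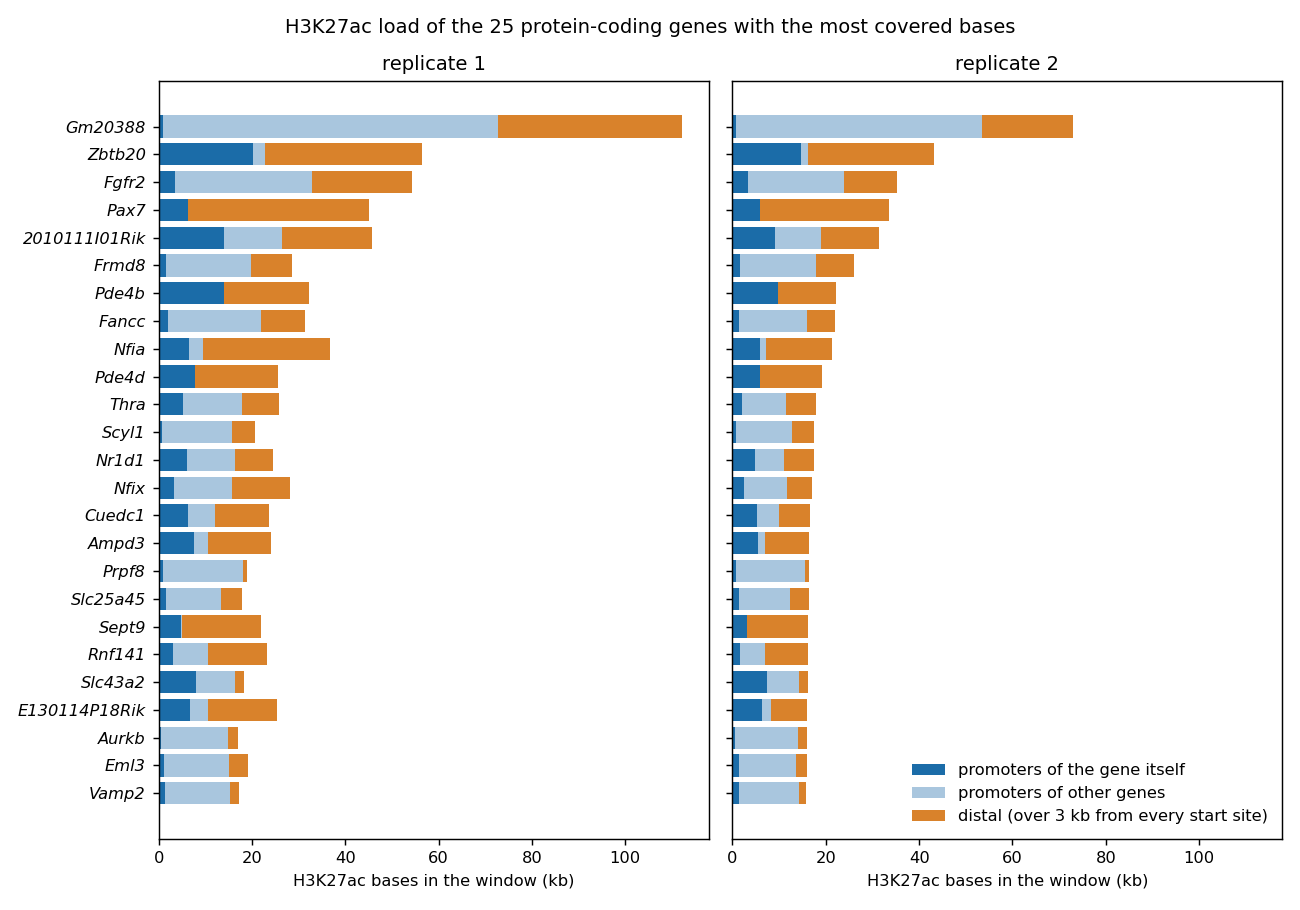
H3K27ac bases in the window (x axis, kb) of the 25 protein-coding genes with the highest load by the lower replicate, 1 panel a replicate, split into promoters of the gene itself, promoters of other genes and distal bases. Pax7, Sept9, Nfia and Pde4d are mostly distal, whereas Aurkb, Vamp2 and Prpf8 are mostly promoters of other genes.

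Rank lists from the replicates shared 162 of their top 200 genes (81%), and 75% of their top 200 by distal bases. The top 200 formed 87 merged windows in replicate 1 and 79 in replicate 2, and those chosen in replicate 1 took in 1.10% of the genome and 9.24% of the bases of replicate 2. The reverse gave 1.02% and 8.84%. A gene in the top 200 of replicate 1 had a median rank of 100.5 in replicate 2.

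Pax7 carried H3K27ac over the promoter, the introns and the region beyond its 3' end. One peak ran from 2.89 kb before the first start site to 12.5 kb after it in replicate 1, and from 1.68 kb before to 12.3 kb after in replicate 2. These peaks were the widest of their lists, 15363 and 13949 bp, and the 13949 bp covered in both replicates were the longest such run of the genome, where the median of 17448 runs was 568 bp and the 99th percentile 2800 bp. Its enrichment was not extreme, 15.02-fold and 14.7-fold, against a median of 13.9 and 11.95 for protein-coding genes with a promoter peak. H3K4me3 covered 96.1% and 86.1% of the run. Beyond this peak lay 27 distal peaks in replicate 1 and 17 in replicate 2, of which 14 and 8 were inside the gene, 12 and 8 beyond its 3' end and 1 each upstream (333 and 316 bp).

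Distal bases of Pax7 lay both in the gene and outside it, 23213 and 16380 inside and 15476 and 11146 in the flanks, where the inside count takes in the part of the wide promoter peak past 3 kb. At 131 to 136 kb from the start, a peak of 5027 bp in replicate 1 and 4682 bp in replicate 2 had a 7.59-fold enrichment in both, and no H3K4me3 in either replicate of that mark. At 142 to 145 kb, peaks of 2964 and 2630 bp surround site 3 above, and at 60.8 to 63.2 kb those around site 1. Peaks beyond the 3' end covered 15143 and 10830 bases, and the peaks inside the gene other than the wide one 14263 and 7633. The bases beyond the 3' end also lie in the window of Tas1r2, a taste receptor gene without a promoter peak, and place it among the 15 genes with the most distal bases (15564 and 10830). Open chromatin and H3K27ac were also set side by side at Pax7. Of 29 distal open summits in its window, 13 (44.8%) were inside H3K27ac of both replicates, against 2273 of 48588 (4.68%) over the genome. The share was 62.5% of 8 at Frmd8, 27.1% of 48 at Zbtb20 and 5.93% of 135 at Fgfr2. All 4 genes were chosen for their many H3K27ac bases, so a share above that of the genome follows in part from the choice. Pax7 had 230 and 171 H3K27ac bases per kb of window.

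**Figure D3:**
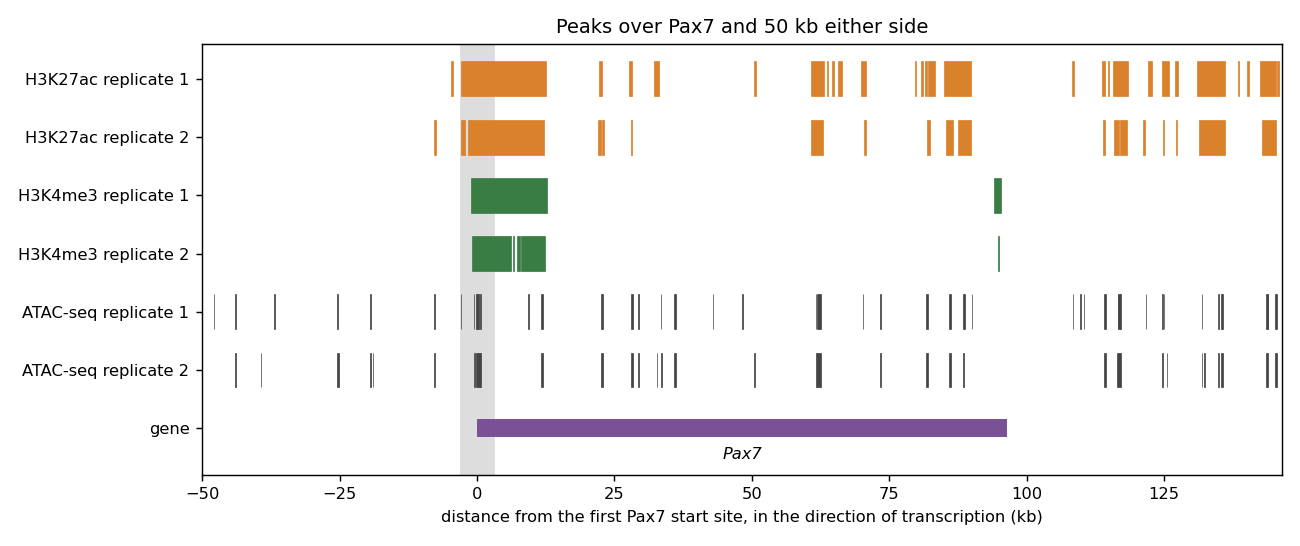
Peaks of H3K27ac and of the other libraries over Pax7 and 50 kb on either side, with distance from the first start site in the direction of transcription (x axis, kb) and 1 row a library above the gene. H3K27ac spans the start as 1 peak of 15363 bp in replicate 1 and of 13949 bp in replicate 2, recurs in the introns and beyond the 3' end, and is nearly absent upstream.

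Long runs and distal clusters named a further set of genes. Only 14 runs covered in both replicates passed 5 kb. After Pax7 came a run of 11060 bp over Neat1 and its neighbour Frmd8os, without a protein-coding promoter, and then 6994 bp at Setd1b, a gene for an H3K4 methyltransferase, and 6687 bp at Tgif1, a homeobox repressor gene of the TGF-beta pathway. Pde4b had 5888 bp, Malat1 5759 bp, Cd82 5421 bp and Runx1, a transcription factor gene of blood development, 5146 bp. Distal runs in both replicates numbered 4838, and joining those within 12.5 kb of each other gave 2908 clusters, of which 1861 were 1 run. The median cluster covered 478 bp and the 99th percentile 4232 bp. The largest, 15161 bp in 22 runs over 52.6 kb, lay outside protein-coding genes with Zfp36l2, which encodes an mRNA decay factor, as its nearest start site. The next, 13238 bp in 16 runs over 24.8 kb, lay nearest to Ppara, the gene of a receptor that controls fatty acid oxidation. The cluster beyond the 3' end of Pax7 (10353 bp) and clusters inside it (9342 bp, mostly the part of the wide promoter peak past 3 kb, and 6413 bp) were also among the largest. A nearest start site is a position and does not name the gene that a cluster acts on.

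Single distal peaks numbered 9214 in replicate 1 and 5408 in replicate 2. Their median distance from a protein-coding start site was 19.9 and 20.0 kb, and 60.2% and 57.7% had their summit inside a protein-coding gene. They were narrow, with medians of 400 and 375 bp. Those of replicate 2 mostly recurred, 81.4% overlapping a peak of replicate 1, against 43.9% the other way. ATAC-seq peaks in both of its replicates overlapped 56.8% and 62.4% of them, and H3K4me3 12.1% and 16.5%.

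Genes could be marked at the promoter alone. Of all protein-coding genes, 5693 (26%) had a promoter peak in both replicates and no distal base in either, a count that was 3380 with promoters of 1 kb. The longest promoter loads among them were at Zc3h4 (6677 and 6175 bases), a zinc finger gene that restrains non-coding transcription, Zfp36l1 (6020 and 5480), an mRNA decay factor gene, Smarca2 (5723 and 5420), the gene of a SWI/SNF ATPase, Lsp1 (5994 and 5067), a gene of a leukocyte actin-binding protein, Pim1 (5767 and 4861), a kinase gene induced by cytokines, and Myc (5132 and 4698), the growth-promoting transcription factor gene. Brd2, whose protein binds acetylated histones, shared 5373 and 4690 promoter bases with its divergent neighbour H2-DMa, with the highest promoter enrichment of these genes, 48.7-fold and 38.2-fold. Such genes were shorter, with a median of 20.9 kb against 31.2 kb for the 3084 genes with promoter and distal marks in both replicates. A shorter gene has a shorter window for a distal base to fall in, so length enters these classes by definition.

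The reverse, no promoter peak in either replicate but distal bases inside the gene in both, was found at 184 genes (0.839%). Replicate 1 alone gave 335 such genes and replicate 2 alone 246, and 109 genes were left when peaks needed a −log10 q of 5 or more. Iqsec3, a gene of inhibitory synapses (4626 and 4282 distal bases in the gene), Dlgap1, a postsynaptic scaffold gene (4999 and 3532), Zfp366 (4179 and 3187) and Tmem44 (3703 and 2761) were among the 10 with the most such bases inside the gene. Pecam1, the endothelial adhesion gene CD31, was another, with 3551 and 2307 distal bases and no promoter peak. These genes had a median length of 93.0 kb against 17.4 kb for all, H3K4me3 at 41.3% of their promoters in both replicates and ATAC-seq peaks at 66.8%. Distal bases inside the gene are part of the definition, which short genes can hardly meet.

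The muscle stem cell markers, like all lists here chosen with earlier results known, combined promoter and distal marks. Promoter peaks in both replicates were at 12 of 13 and distal bases at 11 of 13 (all protein-coding genes, 46.6% and 20%), and distal bases made up 50.3% and 46.7% of their summed load. Pax7 carried much of this, and without it, a value chosen after seeing the data, the other 12 markers had 32.1% and 26.2%. Myf5, the myogenic factor gene expressed in committed MuSCs, had 11624 and 9855 bases, with 5546 and 4622 at its promoter and 3913 and 3433 distal. Myod1, the factor of activated MuSCs and myoblasts, had 4806 and 2768 bases, mostly at the promoter (3138 and 2562).

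Surface and signalling markers of MuSCs followed with a wide range. Itga7, which encodes an integrin of the muscle basal lamina, had 11364 and 9360 bases, Sdc4, a syndecan gene, 10347 and 7847, Spry1, an inhibitor of growth factor signalling, 10176 and 5311, and Heyl, a Notch target, 8794 and 6152. Of the Itga7 bases, 7906 and 7549 lay at promoters of other genes and 2457 and 1811 at its own. Msc had 7904 and 5753, Notch3 5237 and 2657 and Cdh15, encoding M-cadherin, 4576 and 2980. Chrdl2 differed most between replicates, 8496 against 2642 bases. Vcam1, an adhesion gene used to sort MuSCs, had only promoter bases, 2905 and 1770. Calcr, the calcitonin receptor gene of quiescent MuSCs, was the exception at the promoter, with none in either replicate and 2018 and 877 distal bases.

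Immediate early genes, which respond within minutes to signals, all had the mark. Promoter peaks in both replicates were at 25 of 25 and distal bases at 17 of 25 (all protein-coding genes, 46.6% and 20%). Dusp1, a phosphatase gene that ends MAP kinase signalling, had 20472 and 13911 bases in its window (131 and 88.9 per kb). Zfp36 had 14422 and 11155, Junb 12555 and 9537, Fos 6743 and 6055, and Jun 3604 and 3711, all of the last at its promoter. Promoters of other genes held 7472 and 5142 of the Zfp36 bases and 6779 and 4471 of the Junb bases. Klf2 was lowest with 1241 and 822. Of the 25 genes, Jun and Egr2 (4072 and 4462) had more bases in replicate 2 than in replicate 1.

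Notch signalling and quiescence genes were marked at 16 of 20 promoters, with distal bases at 15 of 20 (all protein-coding genes, 46.6% and 20%). By window bases, receptors and effectors led, with Notch2 at 14163 and 10574 bases (59.8 and 44.6 per kb), Notch1 at 13426 and 10173 (84.6 and 64.1 per kb), Cdkn1b, a cell cycle inhibitor gene, at 11900 and 10136 (113 and 96.4 per kb), Foxo3 at 10744 and 7097 and the co-activator gene Maml1 at 10503 and 9709. At Maml1, 8313 and 7326 bases lay at promoters of other genes and 2012 and 2145 at its own. For Cdkn1b these were 7199 and 6242 against 3371 and 3301. Rbpj, the DNA-binding partner of Notch, had 5982 and 6829. Of the ligands, Jag1 (4297 and 3334 promoter bases) and Dll1 (3238 and 2846) had promoter peaks and Dll4 and Jag2 had none. Hey2 had one in replicate 1 alone, and Cdkn1c had no base in its window.

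Genes of the extracellular matrix that surrounds MuSCs were split. Promoter peaks in both replicates were at 15 of 22 and distal bases at 11 of 22 (all protein-coding genes, 46.6% and 20%). Lamc1, the laminin gamma 1 gene, had 22942 and 13792 bases with 16061 and 8665 distal (107 and 64.5 per kb). Hspg2, encoding perlecan, had 15274 and 8545 (75.7 and 42.3 per kb), and Col5a1, a fibrillar collagen gene, 13559 and 8261 (53.6 and 32.6 per kb). Col4a1 had 11992 and 6468 and Sparc 11150 and 8204. Nid1, encoding a basement membrane linker, had none in either replicate, Col1a2 had 426 bases in replicate 1 alone, and Col1a1 and Lamb1 had no promoter peak.

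The clock genes had promoter peaks at 16 of 18 in both replicates and distal bases at 10 of 18 (all protein-coding genes, 46.6% and 20%). Nr1d1 had promoter enrichments of 34.0-fold and 30.2-fold. Rora, encoding a nuclear receptor that activates clock genes, had 19309 and 13983 bases with 13429 and 8505 distal, but in a window of 834 kb (23.1 and 16.8 per kb). Per1 had 16049 and 14608 (139.9 and 127.3 per kb), with 6163 and 6061 at its promoter. Per2 had 11416 and 7543, Clock 3309 and 2704. Hlf had a promoter peak in replicate 1 alone. The time of day at collection was not given in the sources used here.

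Replication and mitosis genes, expressed in dividing cells, also had promoter peaks at 16 of 18 (88.9% against 46.6% of all protein-coding genes). Their median window load was 3189 and 2581 bases, against 1766 and 1316 for all protein-coding genes, and distal bases in both were at 7 of 18 (38.9% against 20%). Pcna, the sliding clamp gene, had 3294 and 2418 promoter bases and Mki67, the proliferation marker, 1614 and 1121. Rrm2 had no base in its window and Bub1 no promoter peak. Ribosomal protein genes were marked at 72 of 76 promoters (94.7% against 46.6%). Distal bases made up 9.76% and 6.56% of their load (all protein-coding genes, 16.2% and 11.6%). Of the other 4, Rps25 and the tissue-restricted Rpl10l and Rpl39l had no promoter base and Rpl3l had 17 in replicate 2 alone. Genes named Zfp were marked at 246 of 365 promoters (67.4% against 46.6%). Transcription factors of other tissues had a promoter peak in both replicates at 0 of 22, with 13 empty windows, and Tal1 of blood had 3017 promoter bases in replicate 1 alone. Olfactory receptor genes, expressed in the nose, were marked at 1 of 1093, Olfr56 (966 and 206 bases), and 969 windows were empty.

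**Figure D4:**
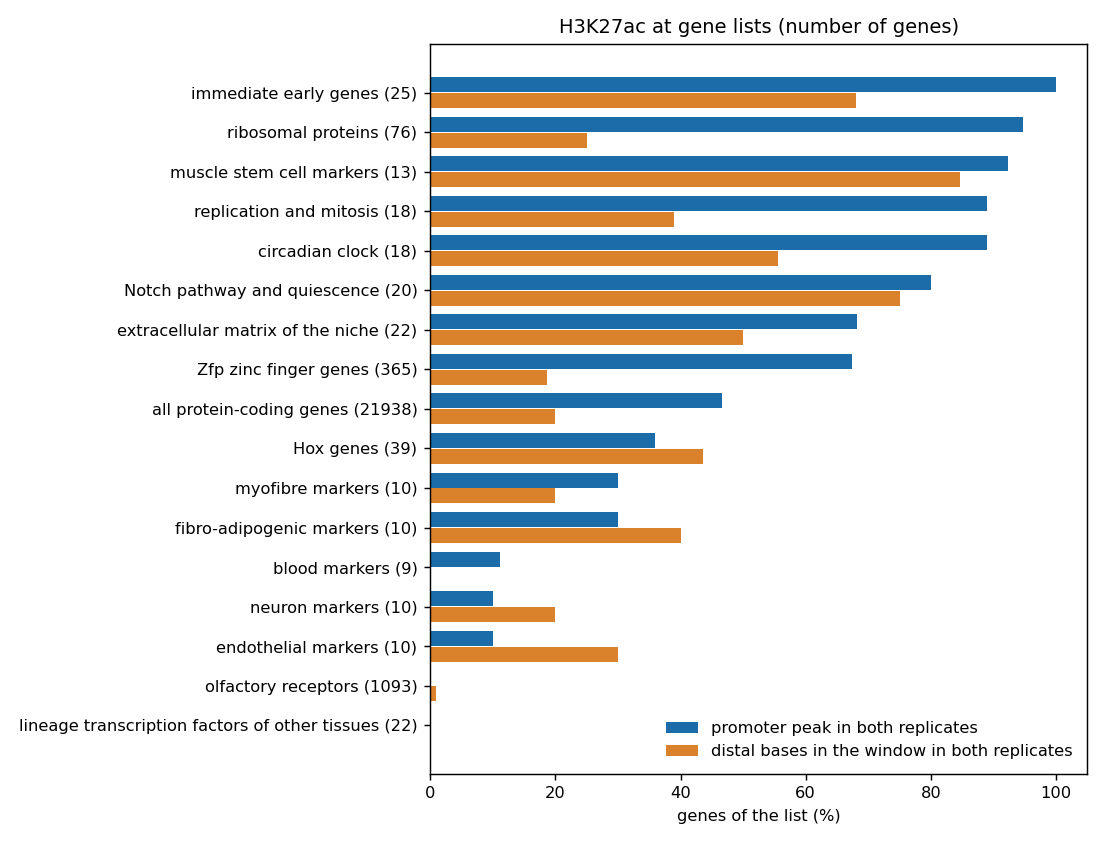
Share of the genes of each list (x axis, percent) with an H3K27ac promoter peak in both replicates and with distal bases in the window in both, and the number of genes in brackets. Immediate early genes (100% promoter peaks) and muscle stem cell markers (92.3%, with 84.6% distal) stand above all protein-coding genes (46.6% and 20%), and olfactory receptors (0.0915%) and factors of other tissues (0%) below.

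The Hox genes, which set position along the body axis and lie in 4 clusters, were marked by cluster. Hoxa had promoter peaks in both replicates at 8 of 11 genes and Hoxc at 5 of 9, against 0 of 10 in Hoxb and 1 of 9, Hoxd8, in Hoxd. Over all protein-coding genes the share was 46.6%. H3K27ac covered 20858 and 15419 bases of Hoxa (19.8% and 14.6% of the cluster) and 18279 and 12037 of Hoxc (15.8% and 10.4%), but 543 and 307 of Hoxb and 1897 and 480 of Hoxd. H3K27me3 lay the other way, with 25777 and 52370 bases in Hoxb and 21855 and 41278 in Hoxd against 6984 and 11600 in Hoxa and 12904 and 22831 in Hoxc. Since the H3K27me3 lists hold peaks with less support, their bases should be compared between clusters and not with those of H3K27ac. The clusters span 105 kb (Hoxa), 174 kb (Hoxb), 116 kb (Hoxc) and 96.8 kb (Hoxd), so an order by bases is not an order by share.

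Loads also varied within the clusters. Hoxa9 had 8983 and 7841 promoter bases, Hoxa10 5397 and 4736 and Hoxa11 830 and 504. Hoxa13 had none, with 3833 and 4780 bases of H3K27me3 at its promoters. In Hoxc, Hoxc10 had 3903 and 3187 and Hoxc11 1882 and 1639, and Hoxc12 and Hoxc13 had none with H3K27me3 of 3293 and 4776 and of 3865 and 5131 bases. Some promoters with H3K27ac had H3K27me3 too, as at Hoxa11 (2030 and 2987 bases), Hoxc11 (855 and 1455) and Hoxd8 (1513 and 2867). Hoxa10 had no H3K27me3 there in either replicate. Start sites in a cluster lie close together, so a peak may count for several genes.

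**Figure D5:**
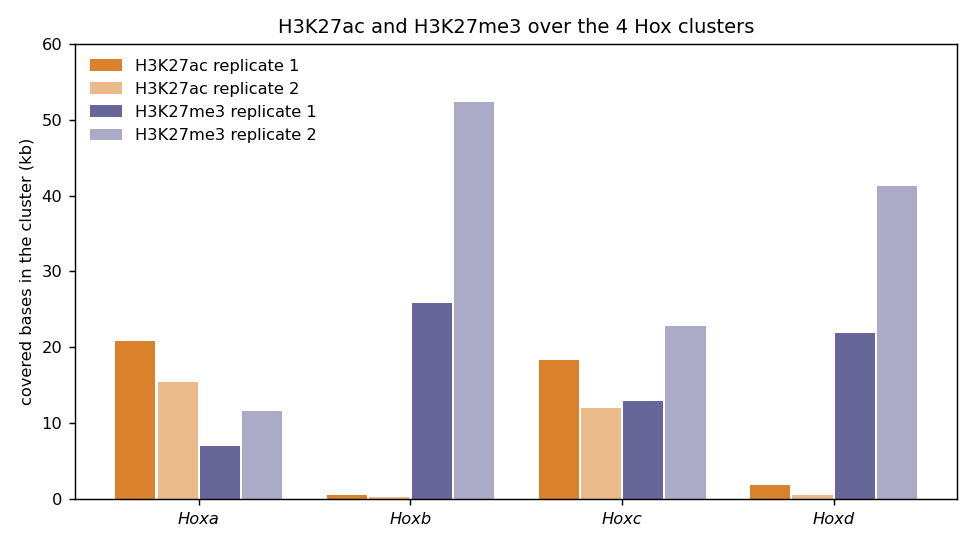
Bases covered by H3K27ac and by H3K27me3 (y axis, kb) in each of the 4 Hox clusters, 1 bar a replicate and mark. H3K27ac covers 20858 and 15419 bases in Hoxa and 543 and 307 in Hoxb, where H3K27me3 covers 25777 and 52370.

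Families with members among the top genes were read in full. All 4 nuclear factor I genes had promoter peaks in both replicates, where 46.6% of all protein-coding genes did. Nfib (20076 and 9917 bases) and Nfic (19576 and 12995) followed Nfia and Nfix. Of the cAMP phosphodiesterases of type 4, Pde4b and Pde4d had 13959 and 9837 and 7751 and 5969 promoter bases, whereas Pde4a and Pde4c had no promoter peak in either replicate and carried H3K27me3 there, 725 and 709 and 561 and 504 bases. Pde4b also had 182 promoter bases of H3K27me3 in replicate 1 and Pde4d 152 in replicate 2. The H3K27me3 lists hold peaks with less support.

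Gene types differed in how often they had the mark. Promoter peaks in both replicates were at 71.1% of the 190 bidirectional promoter lncRNAs, 46.6% of protein-coding genes, 36.2% of processed transcripts, 24.7% of antisense genes and 10.1% of lincRNAs, and at 2.203% of processed pseudogenes and 0 of 218 immunoglobulin V genes. Much of this lay at shared promoters. More than 6 kb from every protein-coding start site, the shares were 17.4% of 344 processed transcripts, 4.36% of 1262 antisense genes and 5.20% (264) of 5077 lincRNAs. In all, 535 non-coding genes away from protein-coding promoters were marked in both replicates.

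Non-coding genes with the most promoter bases lay in few loci. Neat1, the RNA scaffold of paraspeckles, had 6220 in both replicates, and its neighbour Frmd8os had 8151 and 8137. The small RNA models Gm27505, Gm27533 and Gm28006 lie inside the same peak, with 6001 bases each, which is the whole of the promoter region. Malat1, an abundant nuclear RNA, had 6211 and 6395. Lncpint had 6663 and 5487, Dleu2 6076 and 5280, 2310001H17Rik 6517 and 5085, and Mir99ahg, the host of a microRNA cluster, 7098 and 4865. H3K4me3 also lay at these promoters, with 5652 and 4570 bases at Neat1 and 1867 and 1303 at 2310001H17Rik.

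Sequence around open distal sites was compared inside and outside the mark. The 48588 distal ATAC-seq summits were those of replicate 1 peaks that overlap a peak of replicate 2. Of these, 2273 lay inside H3K27ac of both replicates and 42985 outside both. The median ATAC-seq fold was 6.36 inside and 6.41 outside, and the median GC content 53.2% and 52.2%. Sites inside were not spread evenly over openness. They made up 6.24%, 3.24%, 3.77% and 5.46% of 4 groups from the least open to the most open. AP-1 was found in 15.1% of the regions of 100 bases on either side of the summit inside and 27.6% outside (26.5% of all). The E-box was at 34.3% inside and 31.4% outside (31.95% of all), RUNX at 15.8% and 18.7% (18.4%), TEAD at 11.5% and 14.3% (14.2%), MEF2 at 2.16% and 2.96% (2.85%) and CRE at 0.968% and 0.505% (0.531%). AP-1 showed the widest gap in points. Its share inside was below that outside in each of 4 groups of sites ordered by openness, 8.44% against 20.8% in the least open and 24.3% against 37.2% in the most open. The E-box was not on the same side throughout, with 26.9% inside against 28.6% outside in the least open group and 41.9% against 35.9% in the most open. The summit of an open site is free of nucleosomes, whereas H3K27ac lies on nucleosomes beside it. When a peak within 500 bp of the summit counted, an alternative chosen after seeing the data, the AP-1 shares were 23.3% and 27.4% and those of the E-box 36.1% and 30.8%, so inside minus outside went from -12.4 to -4.15 points for AP-1 and from 2.90 to 5.33 points for the E-box. For TEAD it went from -2.78 to 0.0352 points (14.11% and 14.08%), so the lower TEAD share inside the mark was not kept.

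The largest differences in bases between replicates went with long loads. Gm20388, Fgfr2, Nfia, 2010111I01Rik and Zbtb20 had the most bases more in replicate 1. In replicate 2 the largest excess was at 1810024B03Rik, 3634 against 4789 bases, and the next 4, Fam161b, Bbof1, Entpd5 and Coq6, share peaks on chromosome 12, with 2397 against 3474 bases at Fam161b.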

How the data were processed

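The authors trimmed ChIP-seq and ATAC-seq reads with Trim Galore 0.6.10, aligned them to mm10 with BWA 0.7.17-r1188, filtered them with SAMtools 1.5 and called peaks in each library with MACS2 2.2.6. The deposited lists give, per peak, a position, a summit, a score, a fold enrichment and the −log10 of a p-value and of a q-value, as the authors' caller wrote them. They hold no read counts, so the depth is unknown and no counting interval can be given. Peaks on the 21 assembled chromosomes were intersected with GENCODE M21 genes (GRCm38.p6), an overlap of 1 bp counting, with promoters of 3 kb and windows of 50 kb as above. Python 3.11.15, numpy 2.4.6, pandas 2.3.3, scipy 1.17.1, pysam 0.24.0 and samtools 1.23.1 were used. Covered and distal bases were tested on simulated data and came out exact in 2000 of 2000 windows. Samples were grouped by the mark in their titles.

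Named genes were the 25 with the most window bases and the 15 with the most distal bases by the lower replicate, the 10 leading promoter-only, distal-only and non-coding genes, the 5 with the largest excess in each replicate, and the highest and lowest members of 16 gene lists with all MuSC markers. Genes of long runs and clusters, the Nfi and Pde4 families and the printed sites were chosen after their values were seen. The members and lists were chosen with earlier results of these data known. Alternatives were other windows (10 and 100 kb, or around the first start site), promoters of 1 kb, peaks whose −log10 q was 5 or more, equal numbers of top peaks, single replicates, and motif windows of 50 bases on either side of a summit. The only tests were exact permutation tests over libraries. Editing libraries of the series were not used here, and a few items are not reported here.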

Additional observations from a re-analysis of the deposited data

How the results depend on the processing

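Of 108 alternative values, 74 stayed within the limits set for their result and 34 moved. Only H3K27ac minus ATAC-seq could have been counted as reversed, and it kept its sign throughout. The main difference of medians from H3K4me3 was 0, so values of either sign there count as moved. The median load of 1541 bases was 545 with a window of 10 kb, 2706 with 100 kb and 1165 around the first start site. The median distal share of 0 was 2.40% with a window of 100 kb and 4.42% with promoters of 1 kb, and the mean share (11.7%) and the share of summed bases (13.9%), both chosen after seeing the data, were above 0. The difference from H3K4me3 was 2.40 points with 100 kb, -2.09 with promoters of 1 kb and 5.62 by mean shares. Promoter-only genes numbered 3380 with promoters of 1 kb, and distal-only genes 109 with a −log10 q of at least 5. The distal-only count was 335 without replicate 2 and 246 without replicate 1. The cause of these shifts was not tested.

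Motif shares inside H3K27ac with 50 bases on either side of the summit were 9.90% for AP-1, 23.7% for the E-box, 9.33% for RUNX, 1.19% for MEF2, 6.20% for TEAD and 0.616% for CRE, as fewer bases were searched, and CRE was at 1.14% with a −log10 q of at least 5. With a peak within 500 bp, chosen after seeing the data, they were 23.3%, 36.1%, 16.3%, 2.33%, 14.1% and 0.798%. Leaving out a replicate gave 16.02% to 17.9% for AP-1, 34.98% to 36.2% for the E-box, 15.9% to 16.1% for RUNX, 2.05% to 2.17% for MEF2, 11.96% to 13.04% for TEAD and 0.737% to 0.909% for CRE.

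The replicate numbers are shared between marks without a stated pairing. With a replicate block, the paired difference of medians was 0 points from H3K4me3 and -29.1 from ATAC-seq, and that of mean shares 5.62 and -22.2. These equal the differences without a block by arithmetic and are no further check. Single replicates gave 10316 to 10996 marked promoters, 6209 to 6838 empty windows and 280 to 367 lincRNAs. The sharing of the top 200 genes has no value without a replicate. The lists give no depth, and with 2 libraries a mark the smallest exact p is 0.333.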

Other observations

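Chromosomes differed in the share of protein-coding genes with an H3K27ac promoter peak in both replicates. The share was 55.5% of 643 genes on chromosome 12 and 54.1% of 1040 on chromosome 8, and 37.9% of 902 on chromosome 14 and 27.2% of 948 on chromosome X. Chromosome Y, with 183 genes in the annotation, had 2 (1.09%), and 96.7% of its windows were empty. Distal bases in both replicates were in the windows of 27.4% of genes on chromosome 4, which holds Pax7 and Nfia, and of 3.80% on chromosome X. Empty windows made up 54.1% of chromosome X and 16.2% of chromosome 11.

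The histone gene cluster on chromosome 13 was among the densest stretches of H3K27ac. The windows of Hist1h4f and Hist1h3e held 19128 and 14853 bases, 191 and 148 per kb at Hist1h4f, and their promoter bases were 473 and 367 and 1417 and 1426. Borcs6, beside Aurkb and Vamp2 on chromosome 11, had 165 and 154 bases per kb. Histone gene copies are alike in sequence, and the authors removed reads of low mapping quality, whose effect on these loads was not tested.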
